A study of Arabis alpina with 9 samples.

Results

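The comparison is between dissected shoot apices of *pep2-1* mutants and of wild-type plants of *Arabis alpina*, a perennial relative of Arabidopsis, across all expressed genes. It uses 6 of the 9 libraries of the series, 3 of *pep2-1* and 3 of the wild type. The 3 libraries of the *pep1-1* mutant share the model and are given beside some genes. The *pep2-1* plants (written pep2 in the labels) were homozygotes picked with a DNA marker from a segregating population, and *pep1-1* carries a mutation in another repressor of flowering. Both mutants came from chemical (EMS) mutagenesis of Pajares, the accession of the wild type. All plants were 3 weeks old and were grown in long days of 16 h light and 8 h dark. The study states 3 biological replicates, but the sources used here do not state how many apices went into each RNA sample. Of 30690 genes in the table, 21713 had enough reads to be tested, and 16567 of these have an Arabidopsis ortholog in the table.

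*PEP2* is the ortholog of *APETALA2* (*AP2*) of Arabidopsis, a transcription factor of a small family whose transcripts are targets of the microRNA miR172. In Arabidopsis these proteins delay flowering, AP2 also specifies sepals and petals, and it takes part in keeping the shoot meristem. Flowering itself is promoted by integrators such as the MADS-box protein SOC1 and delayed by repressors such as TFL1, which keeps the meristem indeterminate. The other functions described here (nutrient transport, sulfur metabolism, protein turnover, immune receptors) are taken from the Arabidopsis ortholog and the description that the table pairs with each gene. Gene names with the prefix Aa are those of the Arabidopsis orthologs.

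Each library held 12871904 to 23829973 reads in genes, and the 10 most abundant genes took 3.15% to 3.68% of them. Levels are given as CPM, reads per 1000000 reads in genes after scaling for library composition, and always in the order of replicates A, B and C of the table. On the first principal component of the 9 libraries (49.5% of the variance) the *pep2-1* libraries lay at -36.6, -12.1 and -22.0, against -17.2, 18.5 and 18.1 in the wild type. The *pep1-1* libraries lay at -3.61, 26.4 and 28.5. Replicate A was thus the lowest of each genotype, and wild-type A lay within the range of *pep2-1*. The difference between wild-type A and the mean of wild-type B and C is therefore given beside the lists described here where it was 0.25 or more in size, and its part in those results was not tested.

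With a threshold of 0.05 on the adjusted p of edgeR and of 1 on the log2 fold change, 38 genes (0.175%) were up-regulated and 143 genes (0.659%) were down-regulated in *pep2-1* relative to wild-type apices. These genes are termed called in what follows. In such bulk samples fewer cells of a type and less RNA per cell cannot be told apart. The adjusted p alone was passed by 88 genes (0.405%) that were higher and 242 genes (1.11%) that were lower. The libraries of *pep2-1* and the wild type did not overlap for 2253 genes (10.4%) that were higher and 2407 genes (11.1%) that were lower, and the median log2 fold change of all tested genes was 0.00. An unadjusted p under 0.05 was reached by 1612 higher (7.42%) and 1708 lower genes (7.87%). Without wild-type A, 146 genes were up-regulated and 165 down-regulated, without wild-type B 8 and 61, and without wild-type C 7 and 66. Without *pep2-1* A, B or C, 10, 23 and 13 genes were up-regulated, and 87, 81 and 75 were down-regulated. Without *pep1-1* A, which enters through the shared estimate of the spread, 86 genes were up-regulated.

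**Figure D1:**
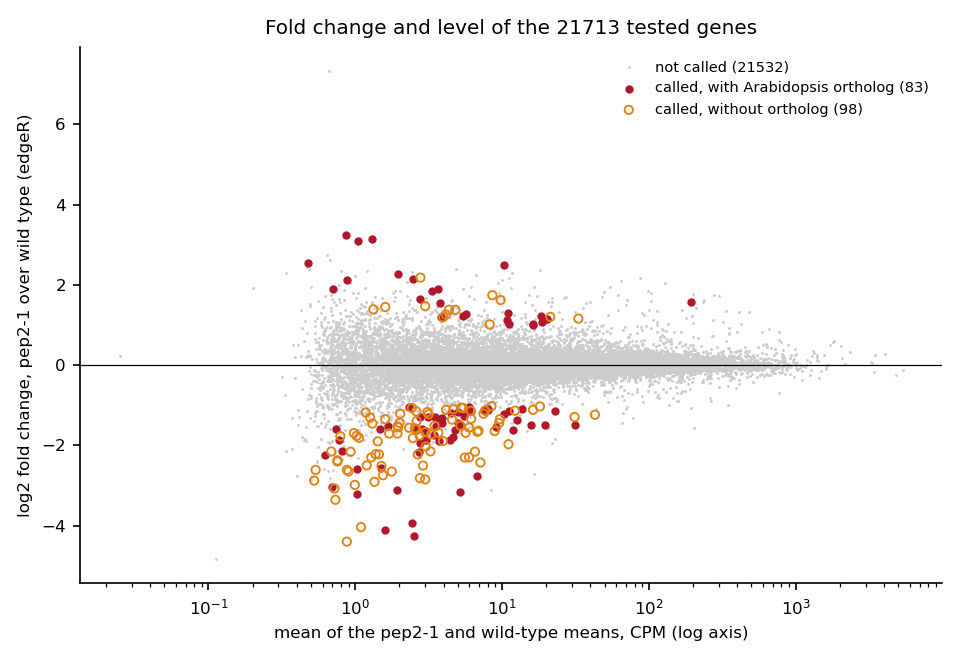
Each point is 1 of the 21713 tested genes, with its mean level in CPM on a log axis and on the vertical axis the log2 ratio of *pep2-1* to wild type. Called genes are red where the table gives an Arabidopsis ortholog (83 genes) and open orange circles where it gives none (98 genes), and most lie below 0.

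Of the called genes with an ortholog, 25 were up-regulated (0.151% of the tested genes with an ortholog) and 58 down-regulated (0.35%). Their median levels were low, at 3.84 CPM for the higher and 3.81 CPM for the lower genes. The median fold change was 2.99 for those that were higher and 2.89 for those that were lower. Each of the 6 libraries was left out in turn, and a call is said to have held where it was made in all 6 of these fits. That was so for 2 of the 25 up-regulated genes and 25 of the 58 down-regulated genes. The 27 genes are plotted by library below, and the genes were sorted by hand into groups from their descriptions after the calls were known. Only called genes were sorted. The size of a group therefore has no share of all tested genes beside it, except where a family was counted by description.

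*PEP2* itself (AALP_AA7G245300, chromosome 7, 26841956 to 26844520) was at 72.2, 80.7 and 84.8 CPM in *pep2-1*, against 67.6, 54.9 and 58.0 CPM in the wild type. All 3 *pep2-1* libraries were higher than all 3 wild-type libraries. The log2 difference was 0.40 ± 0.11 (SE) with an adjusted p of 0.118 in edgeR, and the exact two-sided permutation test gave p = 0.1, the smallest possible with 3 against 3. A point mutation need not alter the level of the transcript, so this value does not check the labels.

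Of the relatives of *PEP2* that are also miR172 targets in Arabidopsis, *AaTOE3* was called. *AaTOE3* was at 4.93, 5.64 and 5.44 CPM in *pep2-1*, against 2.70, 2.09 and 2.25 CPM in the wild type, and was up-regulated by a log2 fold change of 1.19 ± 0.19 (SE, adjusted p = 0.0166 in edgeR). The call was lost without *pep2-1* B or C or wild-type B or C, where adjusted p reached 0.0944. *pep1-1* had 3.86, 2.81 and 4.14 CPM of *AaTOE3*, also above every wild-type library. *AaSMZ* was at 14.3, 15.3 and 15.8 CPM in *pep2-1*, against 9.48, 7.41 and 6.6 CPM in the wild type. Its log2 difference of 0.95 passed the adjusted p (0.0196 in edgeR) but not the fold threshold, which it passed without wild-type A, and adjusted p reached 0.109 with another library left out. In *pep1-1* the gene was at 3.59, 2.81 and 2.42 CPM, below every wild-type library. *AaTOE1* was at 63.8, 43.6 and 53.0 CPM in *pep2-1*, against 46.2, 30.4 and 28.3 CPM in the wild type, and these ranges overlap (log2 difference 0.62, adjusted p = 0.24 in edgeR). *AaTOE2* differed by -0.05. Over the 5 tested members of this list the median was 0.62, wild-type A exceeded the mean of B and C by a median of 0.25, and wild-type A was the highest wild-type library for all 5.

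Among activators and repressors of flowering, *AaSOC1* was up-regulated and *AaTFL1* down-regulated in *pep2-1*. *AaSOC1* (chromosome 4, 21868516 to 21871077) was at 6.0, 6.41 and 5.04 CPM in *pep2-1*, against 1.6, 1.51 and 1.54 CPM in the wild type (log2 fold change 1.90 ± 0.16, SE, adjusted p = 0.000533 in edgeR). Each *pep2-1* library was above every wild-type library, the call held, and *pep1-1* had 8.94, 8.08 and 9.38 CPM. *AaTFL1* was at 6.45, 8.11 and 6.78 CPM in *pep2-1*, against 12.8, 20.8 and 20.6 CPM in the wild type. The log2 fold change was -1.36 ± 0.25 (SE, adjusted p = 0.0284 in edgeR), and the call stood only without wild-type A, since adjusted p reached 0.13 when another library was left out. *pep1-1* had 10.2, 19.1 and 13.8 CPM of *AaTFL1*.

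*AaAGL19*, a MADS-box gene that promotes flowering after cold in Arabidopsis, was at 4.23, 4.1 and 3.86 CPM in *pep2-1*, against 6.85, 7.66 and 8.64 CPM in the wild type. It was lower in every *pep2-1* library, by a log2 difference of -0.92 ± 0.13 (SE, adjusted p = 0.00942 in edgeR), just short of the fold threshold, and adjusted p was 0.0116 to 0.0524 with a library left out. *AaSPL15*, which in Arabidopsis acts in the age pathway, was at 4.67, 2.86 and 2.52 CPM in *pep2-1*, against 2.04, 2.54 and 2.53 CPM in the wild type (log2 difference 0.51, adjusted p = 0.376 in edgeR). The ranges overlapped there, whereas *pep1-1* had 11.3, 10.9 and 8.36 CPM. The bZIP gene *AaFD*, partner of the florigen, was at 6.25, 5.02 and 4.49 CPM in *pep2-1*, against 3.94, 2.83 and 3.16 CPM in the wild type (0.69, adjusted p = 0.161 in edgeR). Of the 8 tested floral activators 1 was up-regulated and none down-regulated, and of the 6 tested repressors 1 was down-regulated, beside 0.175% up-regulated and 0.659% down-regulated of all tested genes. Wild-type A minus the mean of B and C had a median of -0.30 over the repressors.

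**Figure D2:**
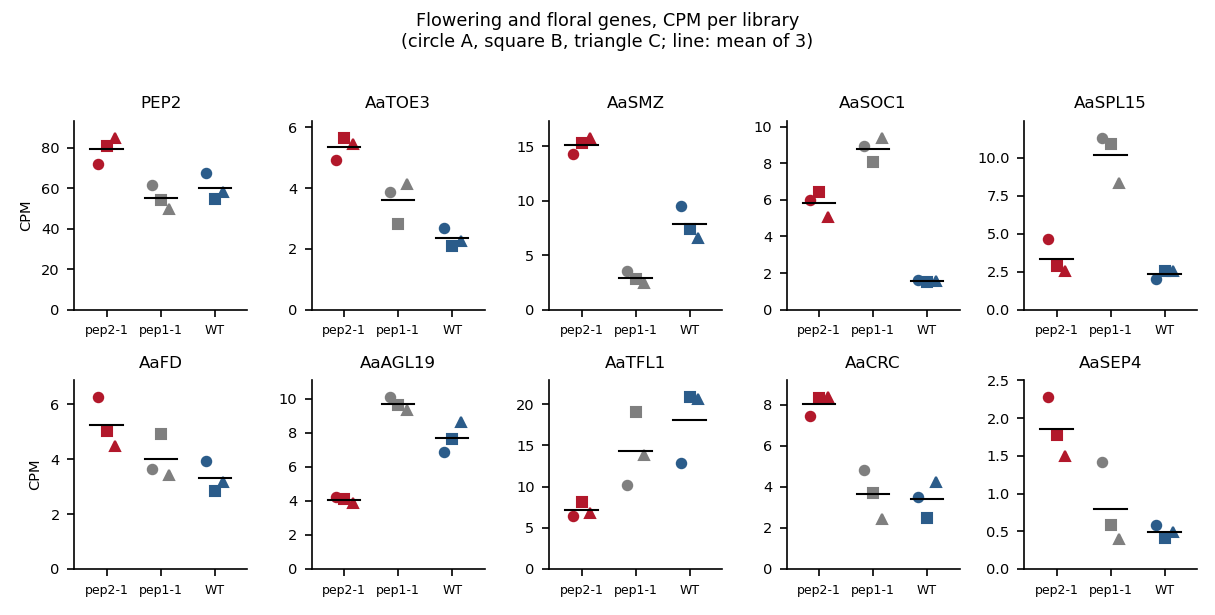
Level in CPM (linear axes from 0) of 10 flowering and floral genes in each library of *pep2-1*, *pep1-1* and the wild type, with the mean of 3 as a line. *AaSOC1*, *AaTOE3*, *AaSMZ*, *AaCRC* and *AaSEP4* lie above the wild type in every *pep2-1* library, and *AaAGL19* and *AaTFL1* lie below it.

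Several genes of floral meristems and organs had few or no reads. *AaAP1*, *AaAG* and *AaSEP3* had no read in the 6 libraries, *AaFT* was at 0.155 CPM or less, and *AaLFY* was at 2.08, 3.32 and 1.42 CPM in *pep2-1*, against 1.17, 2.42 and 2.67 CPM in the wild type (log2 difference 0.11, adjusted p = 0.924 in edgeR). *AaCRC*, a YABBY gene that shapes carpels and nectaries in Arabidopsis, was at 7.46, 8.35 and 8.36 CPM in *pep2-1*, against 3.5, 2.46 and 4.21 CPM in the wild type. It was called (log2 fold change 1.27 ± 0.25, SE, adjusted p = 0.0394 in edgeR), but in none of the 6 fits with a library left out, where adjusted p was 0.0519 to 0.16. *AaSEP4*, a MADS-box gene of floral meristems, was at 2.27, 1.78 and 1.5 CPM in *pep2-1*, against 0.583, 0.409 and 0.492 CPM in the wild type (1.93, adjusted p = 0.0645 in edgeR). It did not pass the test, although the groups did not overlap. The homeodomain-like regulator AALP_AA8G380200 was up-regulated as well (1.12, adjusted p = 0.00942 in edgeR), with 15.7, 13.8 and 15 CPM in *pep2-1*, 16.5, 13.3 and 14.1 CPM in *pep1-1*, and 8.38, 6.75 and 5.34 CPM in the wild type, and its call was lost without wild-type B or C (adjusted p up to 0.0615).

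In the sorting by hand, 8 of the 25 up-regulated and 3 of the 58 down-regulated genes with an ortholog were transporters or membrane proteins. The share of such genes among all tested genes was not counted. None of the 8 up-regulated calls held, and 2 of the 3 down-regulated calls did. By description 1 of 30 tested MATE efflux proteins, 2 of 24 ABC transporters and 1 of 92 major facilitator transporters were up-regulated, beside 0.175% of all tested genes, and none of these was down-regulated. None of 31 MtN21-type transporters was called by edgeR, against 8 higher at an unadjusted p under 0.05 and 9 higher by limma-voom. In Arabidopsis FRD3 exports citrate into the xylem, where it carries iron. *AaFRD3* was at 21.7, 13.8 and 16.9 CPM in *pep2-1*, against 4.81, 2.42 and 2.32 CPM in the wild type, a log2 fold change of 2.49 ± 0.38 (SE, adjusted p = 0.0134 in edgeR). The lowest *pep2-1* library was well above wild-type A, the highest of the wild type. *AaVTL2*, of the vacuolar iron transporter family, was at 30.3, 25 and 21.4 CPM in *pep2-1*, against 13.4, 11.5 and 11.4 CPM in the wild type (1.08, adjusted p = 0.00613 in edgeR). *AaNRT1.1*, which takes up and senses nitrate, was at 17.56, 14.4 and 13.0 CPM in *pep2-1*, against 8.75, 6.55 and 7.09 CPM in the wild type (1.02, adjusted p = 0.00987 in edgeR). For these transporters too the *pep2-1* and wild-type libraries did not overlap. In *pep1-1*, *AaNRT1.1* was at 12.5, 12.9 and 13.5 CPM, also above every wild-type library, whereas *AaFRD3* and *AaVTL2* overlapped the wild type there. Without *pep2-1* A the log2 difference of *AaVTL2* was 0.94, under the fold threshold. *AaFRD3* lost its call without *pep2-1* A or C or wild-type B or C (adjusted p up to 0.0872) and *AaNRT1.1* without *pep2-1* A or wild-type B or C (up to 0.0617).

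Of 20 tested genes of iron homeostasis, those 2 were up-regulated (10% against 0.175% of all tested genes), none was down-regulated, and 10 did not overlap upwards (50% against 10.4%). *AaVTL5* was at 18.5, 11.8 and 14.2 CPM in *pep2-1*, against 7.14, 2.66 and 3.3 CPM in the wild type (log2 difference 1.81, adjusted p = 0.0558 in edgeR). The median over the 20 genes was 0.68, and wild-type A exceeded the mean of B and C by a median of 0.48. Without the replicates A of the 3 genotypes the list had a median of 0.91 with 7 genes up-regulated, and without wild-type A alone *AaVTL5* was up-regulated (adjusted p = 0.0158 in edgeR). *AaOPT3*, which moves iron in the phloem of Arabidopsis, was at 156, 133 and 180 CPM in *pep2-1*, against 117, 89.6 and 79.5 CPM in the wild type, and it did not pass the test (0.71, adjusted p = 0.0698 in edgeR). Of 13 tested genes of nitrate uptake and assimilation *AaNRT1.1* alone was called (4 without the replicates A), the median was 0.51, and wild-type A exceeded B and C by a median of 0.45.

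The other up-regulated transporters were an ABC transporter (AALP_AA5G052500), an ABC-2 type transporter (AALP_AA8G060100), an aluminium activated malate transporter (AALP_AA2G109500), a major facilitator protein (AALP_AA8G152400) and a nodulin MtN3 protein (AALP_AA8G283000), the family of the SWEET sugar carriers. The ABC transporter was at 29.2, 24 and 24 CPM in *pep2-1*, against 15, 9.66 and 8.5 CPM in the wild type (log2 fold change 1.23). The malate transporter was at 16.6, 13.1 and 17.5 CPM in *pep2-1*, against 7.66, 6.67 and 4.85 CPM in the wild type (1.3). Neither pair of ranges overlapped, but each call was lost without *pep2-1* A or C or wild-type B or C, where adjusted p in edgeR reached 0.0881 for the ABC and 0.0987 for the malate transporter. The call of the ABC-2 type transporter stood in none of the 6 fits (adjusted p up to 0.177), that of the major facilitator protein stood without wild-type A only (up to 0.185), and that of the MtN3 protein was lost without *pep2-1* A or C or wild-type B or C (up to 0.198).

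In the sorting by hand, 6 enzymes were up-regulated and 8 down-regulated. None of the 6 up-regulated calls held, and 4 of the 8 down-regulated calls did. Among the up-regulated enzymes was *AaLOX4*, whose lipoxygenase product leads to jasmonate in Arabidopsis. It was at 3.79, 3.79 and 4.65 CPM in *pep2-1*, against 0.656, 1.1 and 0.913 CPM in the wild type (log2 fold change 2.14 ± 0.35, SE, adjusted p = 0.0188 in edgeR), and its call stood without wild-type A only (adjusted p up to 0.0896). No other of the 17 tested jasmonate genes was called, and their median was 0.27. AALP_AA7G205800, described as an acyl CoA reductase, the enzyme type that makes the alcohols of surface wax, was at 20.0, 34.5 and 29.6 CPM in *pep2-1*, 32.4, 24.8 and 33 CPM in *pep1-1*, and 11.7, 12.5 and 13.6 CPM in the wild type. It was called in both mutants over the wild type, at 1.15 in *pep2-1* (adjusted p = 0.0188 in edgeR), and in *pep2-1* it was not called without *pep2-1* B or C or wild-type B or C (adjusted p up to 0.0953). The class III peroxidase AALP_AA7G199600 (1.85) and *AaSRG1*, named senescence-related gene 1 (1.01), were up-regulated too, and both lost the call without *pep2-1* A or C or wild-type B or C, with adjusted p up to 0.129 for the peroxidase and 0.0653 for *AaSRG1*.

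The most abundant up-regulated gene was AALP_AA5G054100 (chromosome 5, 3642087 to 3642731), described as a 60S acidic ribosomal protein, a component of the ribosomal stalk. It was at 282, 295 and 295 CPM in *pep2-1*, 148, 136 and 144 CPM in *pep1-1*, and 97.4, 94.1 and 100 CPM in the wild type. The 3 genotypes did not overlap, and the log2 fold change of *pep2-1* was 1.58 ± 0.07 (SE, adjusted p = 1.1e-05 in edgeR). No other gene of the 234 tested ribosomal protein genes was called by edgeR, while limma-voom called 3 of the 234 as higher. Of these, 38 did not overlap downwards (16.2% against 11.1% of all tested genes) and 4 upwards (1.71% against 10.4%), with a median of -0.04.

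**Figure D3:**
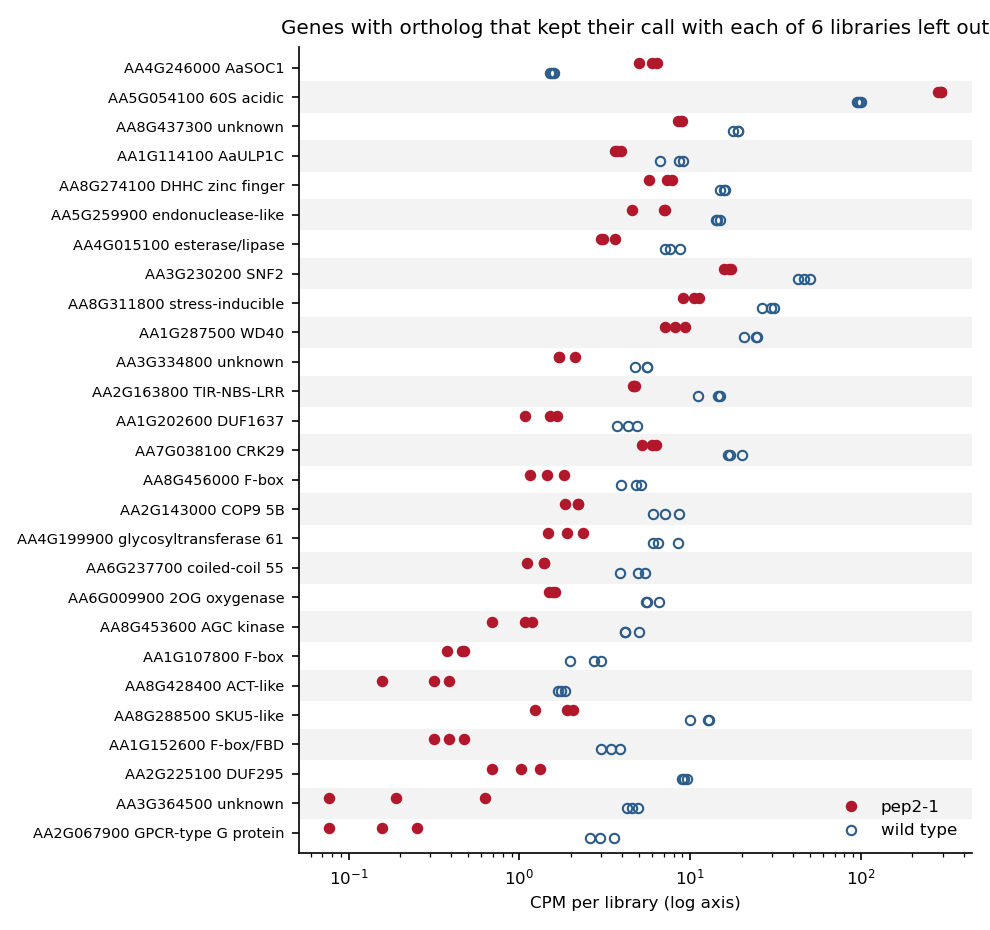
Level in CPM (log axis) in the 3 *pep2-1* libraries (filled) and the 3 wild-type libraries (open) of the 27 genes with an ortholog whose call held with each of the 6 libraries left out, ordered by fold change. *AaSOC1* and the 60S acidic ribosomal protein are higher in *pep2-1*, the other 25 are lower, and no gene has overlapping libraries.

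Among the down-regulated genes with calls that held were some with very low levels in *pep2-1*. AALP_AA2G067900, described as GPCR-type G protein 1, was at 0.253, 0.0773 and 0.158 CPM in *pep2-1*, against 3.57, 2.95 and 2.6 CPM in the wild type (log2 fold change -4.11 ± 0.34, SE, adjusted p = 0.000533 in edgeR). *pep1-1* had 3.11, 3.75 and 3.20 CPM, so only *pep2-1* was low among these 9 libraries. AALP_AA2G225100, of unknown function (DUF295), was at 1.33, 0.696 and 1.02 CPM in *pep2-1*, against 8.97, 9.25 and 9.55 CPM in the wild type (-3.16, adjusted p = 0.000141 in edgeR). AALP_AA3G364500, whose best Arabidopsis match is a putative endonuclease, was at 0.190, 0.0773 and 0.631 CPM in *pep2-1*, 0.609, 0.216 and 0.0781 CPM in *pep1-1*, and 4.96, 4.26 and 4.57 CPM in the wild type. It was low in both mutants, with -3.94 in *pep2-1* (adjusted p = 0.00687 in edgeR).

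Proteins with F-box, FBD or RNI-like domains, which in many cases choose the targets of ubiquitin ligases, made up 10 of the 58 down-regulated genes with an ortholog and 1 of the 25 up-regulated ones. By description 159 genes of these families were tested, so 6.29% were down-regulated, against 0.659% of all tested genes. Of all tested genes with an ortholog, 1.35% were down-regulated under 5 CPM and 0.158% at 5 CPM or more. The share of these families was not split by level. Of the 159, 38 did not overlap downwards (23.9% against 11.1%), 11 did not overlap upwards (6.92% against 10.4%), and the median was -0.10. AALP_AA1G152600 was at 0.316, 0.386 and 0.473 CPM in *pep2-1*, against 3.86, 3.44 and 3.02 CPM in the wild type (log2 fold change -3.12 ± 0.27, SE, adjusted p = 0.000578 in edgeR). AALP_AA1G107800 was at 0.379, 0.464 and 0.473 CPM in *pep2-1*, against 1.97, 2.99 and 2.74 CPM in the wild type (-2.55), and AALP_AA8G456000 was at 1.45, 1.16 and 1.81 CPM in *pep2-1*, against 4.81, 5.12 and 3.93 CPM in the wild type (-1.65). The calls of these 3 genes held, and those of the other 7 did not. The up-regulated member was AALP_AA5G246300 at 3.10, 4.02 and 2.68 CPM in *pep2-1*, against 0.802, 0.696 and 0.492 CPM in the wild type (2.28), which lost its call without *pep2-1* A or B or wild-type B or C (adjusted p up to 0.0886 in edgeR). Such genes often lie in families of similar copies, and the sources used here do not say how reads shared by copies were counted, so the values of single members are uncertain.

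In the sorting by hand, 9 of the 58 down-regulated genes were placed under immune receptors and kinases, with no share of all tested genes to set beside them. CRK29, a cysteine-rich receptor-like kinase (AALP_AA7G038100), was at 5.24, 5.95 and 6.31 CPM in *pep2-1*, against 16.7, 20.0 and 17 CPM in the wild type (log2 fold change -1.62 ± 0.13, SE, adjusted p = 0.000533 in edgeR). AALP_AA2G163800, of the TIR-NBS-LRR class of resistance proteins, was at 4.61, 4.71 and 4.73 CPM in *pep2-1*, against 11.2, 14.4 and 15 CPM in the wild type (-1.53, adjusted p = 0.00108 in edgeR). Both genes overlapped the wild type in *pep1-1*, with 15.4, 18.8 and 19.1 CPM of CRK29 and 15.7, 14.0 and 12.9 CPM of the resistance gene. An AGC kinase, AALP_AA8G453600, was at 1.07, 0.696 and 1.18 CPM in *pep2-1*, against 4.16, 4.99 and 4.14 CPM in the wild type (-2.17), and these 3 calls held. Of 53 tested NBS-LRR genes 2 were down-regulated (3.77% against 0.659% of all tested genes), 10 did not overlap downwards (18.9% against 11.1%) and 7 upwards (13.2% against 10.4%), and the median was 0.02. Of 11 tested cysteine-rich receptor-like kinases CRK29 alone was called. None of 118 tested leucine-rich repeat kinases was called by edgeR, against 22 higher and 13 lower at an unadjusted p under 0.05 and 2 higher by limma-voom.

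Of the genes sorted as protein modification 3 were down-regulated and 1 was up-regulated. *AaULP1C* encodes a protease that removes SUMO, a small protein tag, and was at 3.92, 3.63 and 3.71 CPM in *pep2-1*, against 9.04, 8.60 and 6.67 CPM in the wild type (log2 fold change -1.11 ± 0.15, SE, adjusted p = 0.00687 in edgeR). Its relative *AaULP1A* was at 5.05, 5.33 and 4.81 CPM in *pep2-1*, against 8.38, 11.8 and 11.9 CPM in the wild type (-1.08, adjusted p = 0.0205 in edgeR). *AaULP1B* passed the adjusted p only, at 29.7, 28.0 and 29.2 CPM in *pep2-1* and 39, 43.5 and 39.5 CPM in the wild type (-0.49, adjusted p = 0.0335 in edgeR, up to 0.152 with a library left out). The libraries did not overlap for any of the 3 SUMO proteases. Of the 13 tested SUMO genes 2 were down-regulated (15.4% against 0.659% of all tested genes) and none was up-regulated. Of the 13, 5 did not overlap downwards (38.5% against 11.1%) and 1 upwards (7.69% against 10.4%), and the median was -0.05. The call of *AaULP1C* held, and that of *AaULP1A* was made without wild-type A but not without any other library (adjusted p up to 0.103). The subunit COP9-signalosome 5B (AALP_AA2G143000), which removes the tag NEDD8 from ubiquitin ligases, was at 2.21, 1.85 and 2.21 CPM in *pep2-1*, against 7.07, 8.60 and 6.04 CPM in the wild type (-1.79), and held. The up-regulated gene was the RING/U-box protein AALP_AA8G046900, of a family that holds many ubiquitin ligases, at 6.26, 4.79 and 5.83 CPM in *pep2-1*, against 2.11, 1.8 and 1.83 CPM in the wild type (1.56, adjusted p = 0.0119 in edgeR), and its call was lost without *pep2-1* A or C or wild-type B or C (adjusted p up to 0.0769).

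Of 5 down-regulated genes for chromatin and nucleic acid proteins, the SNF2 helicase AALP_AA3G230200 had the highest level, with 17.2, 15.7 and 16.9 CPM in *pep2-1*, against 42.6, 50.5 and 46.1 CPM in the wild type (log2 fold change -1.48 ± 0.09, SE, adjusted p = 0.000141 in edgeR). Proteins of the SNF2 type move nucleosomes. AALP_AA5G259900, a putative endonuclease, was at 7.14, 4.56 and 7.01 CPM in *pep2-1*, against 14.4, 14.2 and 15 CPM in the wild type (-1.21). Both calls held.

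Other down-regulated genes with calls that held had diverse roles. AALP_AA8G288500, similar to SKU5, a cell wall protein of directional root growth in Arabidopsis, was at 1.90, 1.24 and 2.05 CPM in *pep2-1*, against 12.8, 9.99 and 12.8 CPM in the wild type (log2 fold change -2.76, adjusted p = 0.000321 in edgeR). AALP_AA8G311800, a putative stress-inducible protein, was at 11.3, 9.04 and 10.6 CPM in *pep2-1*, against 30.8, 29.7 and 26.2 CPM in the wild type (-1.48). AALP_AA1G287500, with WD40 repeats, was at 7.14, 8.19 and 9.38 CPM in *pep2-1*, against 24.6, 20.6 and 24.2 CPM in the wild type (-1.49). A 2-oxoglutarate dependent oxygenase (AALP_AA6G009900, -1.90), a glycosyltransferase of family 61 (AALP_AA4G199900, -1.86) and an esterase/lipase (AALP_AA4G015100, -1.26) were down-regulated as well. The libraries of *pep2-1* and the wild type did not overlap in any of these genes.

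Genes without an Arabidopsis ortholog made up 23.7% of the tested genes but 59.4% of the down-regulated and 34.2% of the up-regulated genes. They were also expressed at lower levels, as 43.3% of them had a mean under 5 CPM, against 16.1% of genes with an ortholog. Of the genes without an ortholog 13 were up-regulated (0.253%) and 85 down-regulated (1.65%). At 5 CPM or more, 0.856% of genes without an ortholog were down-regulated, against 0.158% of genes with one. Below 5 CPM these shares were 2.7% and 1.35%. The 4 down-regulated genes of this kind with the largest fold change at 5 CPM or more were AALP_AAs74908U000300 (-2.43), AALP_AAs41246U000200 (-2.30), AALP_AA3G154300 (-2.30) and AALP_AA8G391300 (-2.16). AALP_AA3G154300 was at 2.46, 1.47 and 2.05 CPM in *pep2-1*, against 10.1, 9.74 and 9.90 CPM in the wild type. Of the up-regulated ones AALP_AA5G090400 had the largest fold change (1.75), with 12.8, 14.2 and 12.4 CPM in *pep2-1*, against 4.37, 2.62 and 5.06 CPM in the wild type. These genes have no description in the table.

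Called genes were spread over the chromosomes, from 0.613% of the tested genes of chromosome 1 to 1.02% of chromosome 2. Of the tested genes without a place on a chromosome, 1.39% were called. Of 158 called genes with a place on a chromosome, 16 lay beside another called gene, in 8 pairs. Both genes were down-regulated in 7 pairs, and 1 pair went in opposite directions. Most called genes were down-regulated in any case (143 against 38 up-regulated). How many such pairs scattered calls would give was not tested. CRK29 had AALP_AA7G038200 as its neighbour, at 1.2, 1.39 and 1.18 CPM in *pep2-1*, against 3.79, 4.87 and 4.0 CPM in the wild type. The TIR-NBS-LRR gene AALP_AA2G163800 stood beside AALP_AA2G163900 (-2.30, not called without wild-type B, adjusted p = 0.0554 in edgeR), and the F-box gene AALP_AA1G152600 beside AALP_AA1G152500 (-1.64). In *pep1-1* over the wild type, AALP_AA1G152500 was lower too (log2 difference -2.279, adjusted p = 0.005324 in edgeR), whereas AALP_AA1G152600 differed by -0.03992. Whether the counting used the strand, and so told overlapping neighbours apart, is not stated. These neighbours were named after their values were seen. Within 1000000 bp on either side of *PEP2*, 195 genes were tested, none was up-regulated and 1 was down-regulated, beside 0.175% and 0.659% of all tested genes. The down-regulated gene, AALP_AA7G238200, was at 3.03, 3.25 and 3.55 CPM in *pep2-1*, against 8.82, 11.4 and 10.7 CPM in the wild type (-1.66).

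Genes of aliphatic glucosinolates, the sulfur-containing defence compounds made from methionine, had higher levels in *pep2-1* libraries in nearly every case, but none passed the test of edgeR. Over chain elongation, core structure and side chain modification, 20 genes were tested, 18 of them were higher without overlap (90% against 10.4%), and the median log2 difference was 1.36, with adjusted p from 0.124 to 0.789 in edgeR. At an unadjusted p under 0.05, 18 were higher, limma-voom called 14, and 16 were called without the replicates A of the 3 genotypes. *AaIMD1*, an enzyme of methionine chain elongation, was at 513, 415 and 350 CPM in *pep2-1*, against 203, 96.6 and 83.1 CPM in the wild type (1.74, adjusted p = 0.224 in edgeR). *AaCYP83A1*, of the core pathway, was at 389, 358 and 339 CPM in *pep2-1*, against 178, 93.9 and 78.2 CPM in the wild type (1.64, adjusted p = 0.191 in edgeR). *AaFMOGS-OX1*, which oxidizes the side chain, was at 92.8, 82.2 and 83.3 CPM in *pep2-1*, against 45.6, 9.66 and 12.2 CPM in the wild type (1.96, adjusted p = 0.193 in edgeR). Wild-type A was the highest wild-type library for all 20 genes, and *pep1-1* A was the highest of *pep1-1* for 19, while *pep2-1* A was the highest of *pep2-1* for 8. In chain elongation the median of *pep2-1* over the wild type was 1.74, and wild-type A exceeded the mean of B and C by a median of 1.03. That excess was 0.69 in the core pathway and 0.91 in side chain modification. Without the replicates A of the 3 genotypes this list had a median of 2.31 with 5 of its 6 tested genes up-regulated. *AaFMOGS-OX1* passed the test without wild-type A (adjusted p = 0.0369 in edgeR).

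*AaMYB29*, a regulator of the aliphatic pathway, was at 44.7, 64.5 and 58.6 CPM in *pep2-1*, against 22.9, 17.5 and 16.6 CPM in the wild type (log2 difference 1.56, adjusted p = 0.138 in edgeR). *AaMYB28*, the other main regulator, was at 76.3, 94.9 and 97 CPM in *pep2-1*, against 72.9, 52.0 and 40.2 CPM in the wild type (0.70). The 2 groups did not overlap for either gene, though *pep2-1* A and wild-type A were close for *AaMYB28*. Indolic glucosinolate genes, made from tryptophan, had a median of 0.17 over 7 tested genes, and none was called by edgeR. Of the 7, 2 were higher without overlap (28.6% against 10.4%), and 1 was higher at an unadjusted p under 0.05. limma-voom called 2 as higher, and 2 were called without the replicates A, where the median was 0.45. *AaMYB34*, also on the list of glucosinolate MYB genes, was lower in every *pep2-1* library. It was at 8.28, 11.4 and 11.5 CPM, against 12.25, 15.8 and 16.4 CPM in the wild type (-0.52, adjusted p = 0.221 in edgeR). Over the 4 tested glucosinolate MYB genes wild-type A exceeded the mean of B and C by a median of 0.52.

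Sulfate uptake and assimilation, which supply the sulfur, had higher levels in *pep2-1* as well. Of 18 tested genes none was called by edgeR (9 higher at an unadjusted p under 0.05, 7 called by limma-voom, 9 called without the replicates A), 8 were higher without overlap (44.4% against 10.4%), and the median was 0.96, with wild-type A above B and C by a median of 0.74. *AaAPS1*, the ATP sulfurylase that activates sulfate, was at 500, 398 and 404 CPM in *pep2-1*, against 284, 181 and 157 CPM in the wild type (1.07, adjusted p = 0.119 in edgeR), and was called without wild-type A (adjusted p = 0.0442 in edgeR). The separate list of methionine synthesis had a median of 0.26 over 9 tested genes, with 6 above 0, 3 below 0 and none called by edgeR. Of these, *AaHMT3*, which methylates homocysteine to methionine, was at 30.1, 35.8 and 24.4 CPM in *pep2-1*, against 9.62, 4.63 and 3.51 CPM in the wild type (2.37, adjusted p = 0.0809 in edgeR). It was also called without wild-type A (adjusted p = 0.0459 in edgeR). Its relatives *AaHMT1* (-0.29) and *AaHMT2* (-0.20) had differences below 0.

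**Figure D4:**
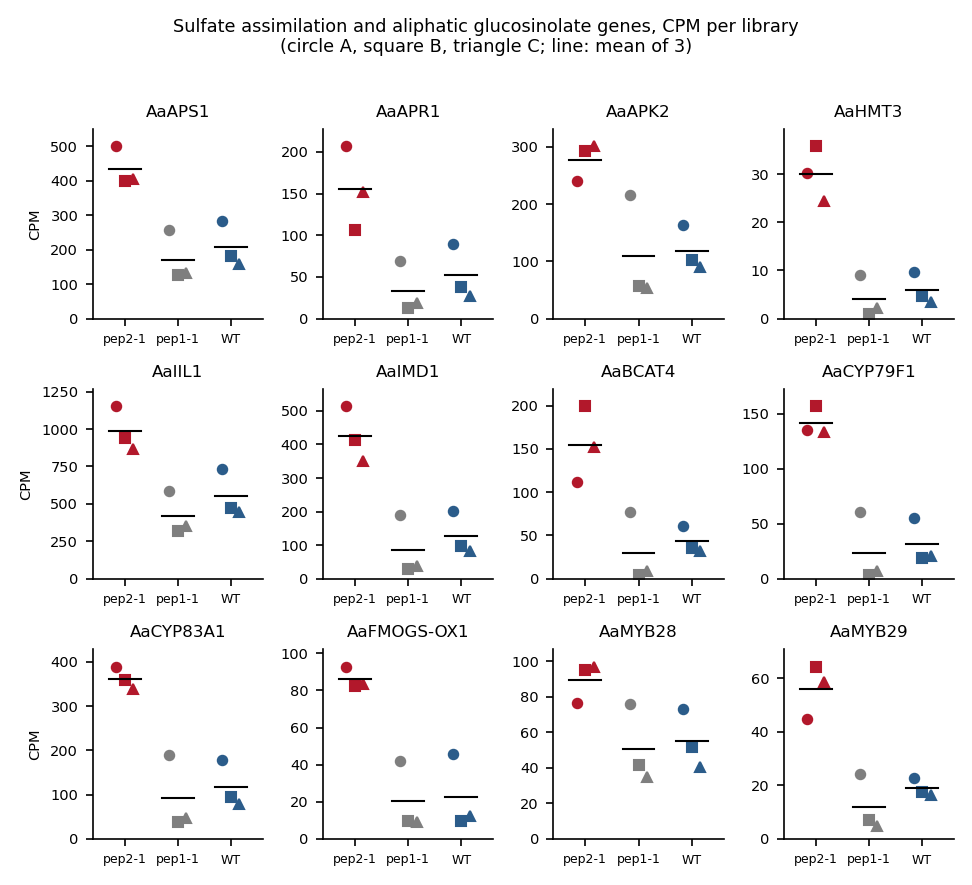
Level in CPM (linear axes from 0) of 12 genes of sulfate assimilation, methionine and aliphatic glucosinolates in each library of *pep2-1*, *pep1-1* and the wild type, with the mean of 3 as a line. Replicate A (circles) is the highest of the wild type and of *pep1-1* in each panel, and the *pep2-1* libraries lie above the wild type in each; *AaBCAT4*, *AaCYP79F1*, *AaAPR1* and *AaAPK2* were chosen for the plot after their values were seen.

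Lists of genes that mark tissues were compared as well. Of 14 tested vascular genes 9 had higher levels in *pep2-1* without overlap (64.3% against 10.4%), with none called (5 higher at an unadjusted p under 0.05, 2 called by limma-voom), a median of 0.45 beside one of 0.25 for wild-type A over B and C, and summed levels of 724, 741 and 731 CPM in *pep2-1*, against 614, 495 and 544 CPM in the wild type. *AaSEOR1*, a phloem filament protein, passed the adjusted p (0.61, adjusted p = 0.0473 in edgeR, up to 0.188 with a library left out) under the fold threshold. Shoot meristem and boundary genes had a median of 0.27, with 6 of 12 higher without overlap (50% against 10.4%) and none called (4 higher at an unadjusted p under 0.05, 0 called by limma-voom). *AaSTM*, which keeps the meristem, was at 43.7, 39.5 and 44.3 CPM in *pep2-1*, against 38.1, 33.7 and 27.3 CPM in the wild type. Genes of epidermis, trichomes and stomata had a median of -0.19 over 14 tested genes, and *AaGL1*, which starts trichomes, was at 9.29, 13.1 and 11.0 CPM in *pep2-1*, against 14.1, 18.9 and 19.2 CPM in the wild type (-0.66, adjusted p = 0.139 in edgeR). The 7 root genes summed to at most 3.1 CPM in any *pep2-1* library and 2.74 CPM in any wild-type library. Photosynthesis genes summed to 20360, 14390 and 15230 CPM in *pep2-1*, against 18580, 12840 and 11990 CPM in the wild type, with a median of 0.14 and none of 31 called (1 higher at an unadjusted p under 0.05, 1 called by limma-voom). Replicate A was the highest in both genotypes, and wild-type A exceeded the mean of B and C by a median of 0.49. The part of these tissue markers in the other results was not tested.

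Genes of dark and senescence responses had a median of -1.07 over 7 tested genes, and wild-type A minus the mean of B and C had a median of -2.09. The only member called by edgeR or limma-voom was *AaSRG1*, described above, which was up-regulated. At an unadjusted p under 0.05, 3 members were lower, and 3 were down-regulated without the replicates A of the 3 genotypes. *AaBCAT2*, an enzyme of amino acid breakdown, was at 1.83, 7.42 and 4.26 CPM in *pep2-1*, against 1.75, 37.1 and 47.2 CPM in the wild type. Wild-type A thus lay below every *pep2-1* library for this gene. The 9 tested genes of the morning clock had a median of -0.39, wild-type A minus the mean of B and C had one of -0.91, and *AaLHY*, a morning transcription factor, was at 11.1, 9.20 and 3.39 CPM in *pep2-1*, against 4.67, 32.8 and 18.3 CPM in the wild type. None of these clock genes was called, by edgeR or limma-voom or at an unadjusted p under 0.05.

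Cell division genes (24 tested, median -0.07) and genes of gibberellin (18 tested, median 0.03), auxin (16 tested, median -0.05) and cytokinin (14 tested, median 0.24) had no called member. Wild-type A minus the mean of B and C had a median of -0.25 over the auxin genes. The salicylic acid list had none either (13 tested, median 0.19), nor did the flavonoid list (9 tested, median 0.22). At an unadjusted p under 0.05, 1 gibberellin, 1 auxin, 4 cytokinin and 3 salicylic acid genes were higher, 2 cell division and 2 auxin genes were lower, and no flavonoid gene passed. limma-voom called 1 gibberellin, 1 salicylic acid and 2 flavonoid genes as higher.

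**Figure D5:**
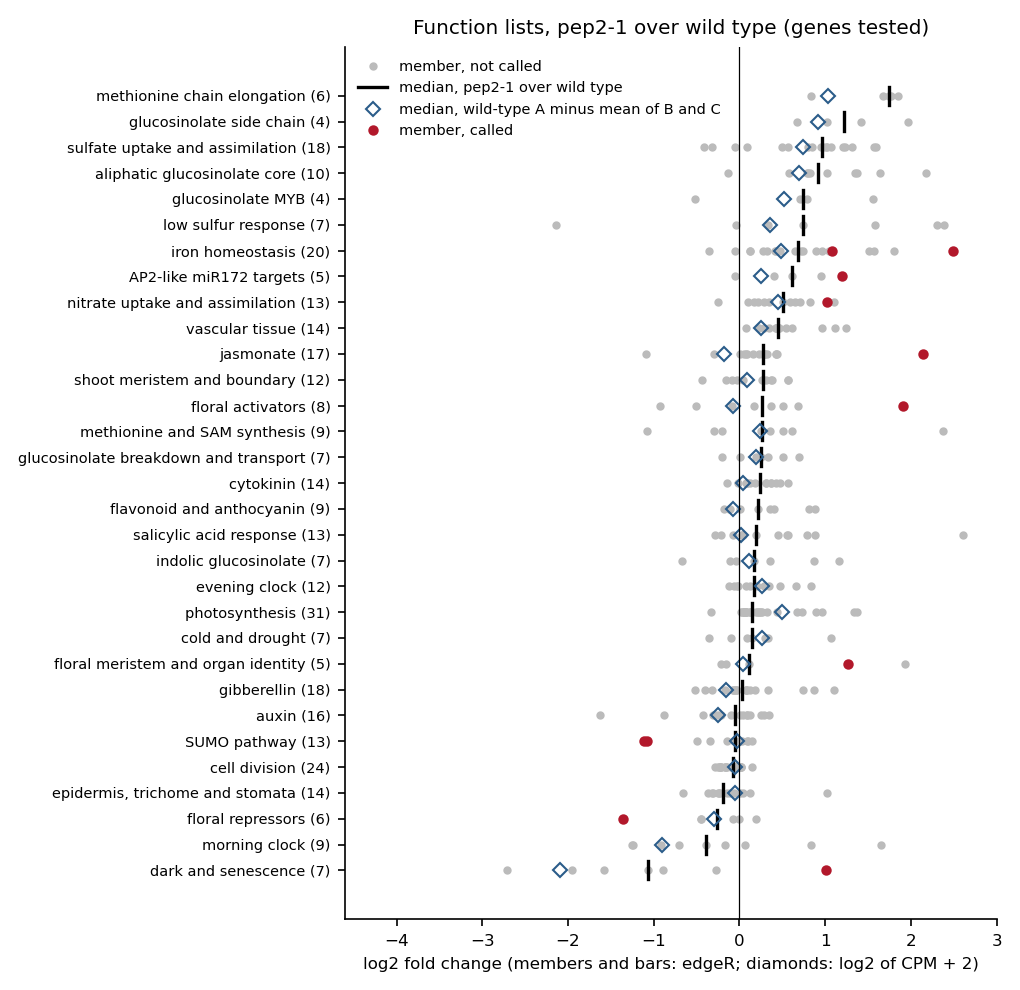
Log2 ratio of *pep2-1* to wild type of the tested members of each list (dots, red where called) with the median (bar), and the median log2 difference between wild-type A and the mean of wild-type B and C (diamond). The 4 highest medians (chain elongation, side chain, sulfate and core) and the 2 lowest (dark and senescence, morning clock) belong to the lists where wild-type A differed most from B and C.

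The called genes had smaller differences in *pep1-1*, measured against the same wild-type libraries. The up-regulated genes with an ortholog had a median log2 fold change of 1.58 in *pep2-1* and 0.31 in *pep1-1* over the wild type, and the down-regulated ones of -1.53 in *pep2-1* and -0.16 in *pep1-1*. Since the genes were chosen in *pep2-1*, this order is no finding. In *pep1-1* over the wild type, 3 of the 25 up-regulated and 2 of the 58 down-regulated genes with an ortholog were called in the same direction, beside 0.0829% higher and 0.0783% lower calls among all genes. Set against *pep1-1* instead of the wild type, *pep2-1* was called in the same direction for 13 of the 25 and 39 of the 58, beside 0.686% higher and 0.649% lower calls among all genes. Each of these comparisons reuses libraries by which the genes were chosen. A share above that of all genes was thus given in advance, and the counts are no independent support.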

How the data were processed

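RNA of shoot apices was sequenced by the authors from polyadenylated RNA as single-end reads, and the submitters' notes name TopHat and Cuffdiff, without versions. The sources used here state neither the strand of counting nor the version of the annotation. The deposited values used are raw reads per gene and library, treated as estimated counts, since 64 genes that share a locus have fractional values. They were not normalized by the authors and were rounded to whole numbers for the tests. Another 18 columns, 2 for each library (scaled reads and FPKM), were not used, nor were the authors' columns of FPKM per genotype, log2 fold changes, p-values and q-values. The columns carry letters A to C and the labels numbers, so each library is known by its genotype only.

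Genes were kept by filterByExpr (minimum count 10, minimum total 15) and tested with the quasi-likelihood test of edgeR 4.0.16 in R 4.3.3 on 1 model of the 9 libraries (TMM, genotype as the term), with Benjamini-Hochberg adjustment over 21713 genes. Calling a gene took an adjusted p up to 0.05 and a log2 ratio of 1 or more in size. Standard errors derive from the quasi-likelihood F. Differences between wild-type libraries are of log2(CPM + 2). The p-values of edgeR set a difference against the spread between libraries within a genotype, estimated from all 9 libraries.

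Alternatives were DESeq2 1.42.0, limma 3.58.1 (voom with quality weights), other size factors, filters and sets of libraries. Lists of Arabidopsis genes were matched through the ortholog column, and families by words of the description. The members and lists were chosen with earlier results of these data known. Names were drawn from the called genes with an ortholog and a mean of at least 1 CPM. They were also drawn from up to 4 members of each list with the smallest p. Not all of these genes are given. To these came the 4 down-regulated genes without an ortholog with the largest fold change (mean of at least 5 CPM). Of the up-regulated genes without an ortholog only the 1 with the largest fold change is given. The flowering genes of the study were added, except *AaZCE1*, which could not be identified here. Other names were chosen after their values were seen. *PEP1* was not analysed here.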

Additional observations from a re-analysis of the deposited data

How the results depend on the processing

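Counts of called genes moved between settings, and many of the genes named lost their call when 1 library was left out. Against 38 up-regulated and 143 down-regulated genes, DESeq2 called 98 up-regulated, limma-voom 378 and 277, the 6 libraries alone 65 up-regulated, the replicate block 191 up-regulated, and the fit without the replicates A of the 3 genotypes 320 and 221. With 1 library left out at a time, 7 to 146 genes were up-regulated and 61 to 165 down-regulated. The other settings stayed within 1.5 times. The cause was not tested. The log2 difference of *PEP2* was 0.40 and missed the threshold on the adjusted p. It passed that threshold, though never the fold threshold, with DESeq2 (0.4028), limma-voom (0.4987), without the replicates A (0.5545) and without wild-type A (0.4896), and ranged over 0.3348 to 0.4896 with 1 library left out.

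Of 86 called genes tracked by name, 86 kept their call with DESeq2, 85 with limma-voom, 82 with the 6 libraries alone and 83 without the replicates A. With 1 library left out, 41 (without wild-type B) to 85 (without *pep1-1* A) did. None changed direction. Letters were not taken to pair *pep2-1* with wild-type libraries, since their deviations correlated at 0.47 for A, 0.39 for B and 0.01 for C. Those of *pep1-1* and wild type correlated at 0.63, 0.39 and 0.32, and those of *pep2-1* and *pep1-1* at 0.31, 0.08 and -0.03. The replicate block kept all 86 calls and called 8 of the 20 aliphatic glucosinolate genes, 7 of the 18 sulfate genes and 5 of the 20 iron genes as higher, and 2 of the 7 dark and senescence genes as lower. Genes at the lowest levels rest on few reads, so changes there were not always detectable at this depth. The share of called genes was nevertheless larger under 5 CPM than at 5 CPM or more.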
